A study of Caenorhabditis elegans with 54 samples.

Results

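Ribosome-bound RNA was isolated in 2 different ways from one strain of Caenorhabditis elegans, and the RNA that each way enriched was compared gene by gene. In the first, ribosomes were immunoprecipitated (IP) from whole-animal lysate through a FLAG tag on the endogenous ribosomal protein RPL-22 and set against total RNA of the same experiment. In the second, the 60S, 80S and polysome fractions of a sucrose gradient were pooled and set against their own total RNA. The comparison uses 12 of the 54 libraries of the series, in 4 groups of 3 replicates: the IP, its total RNA, the pooled fractions and their total RNA. The libraries were chosen by their group labels, and no measured value entered the choice.

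All 4 groups came from strain MSD470, genotype rpl-22(wbm58), in which the tag sits at the native rpl-22 gene and the group is labelled ubiquitous. The control libraries therefore carry the tagged ribosome as well, and a mock IP of untagged animals was not analysed here. The animals were day 1 adults grown at 20 °C on OP50 bacteria with no special treatment. Gradients of 15 to 60% sucrose were loaded with lysate of roughly 12000 animals each, made with cycloheximide at 1 mM, per the labels. Each library is a pool of animals, and the labels do not say whether the replicates came from separate cultures, so p-values measure the spread between these samples only, which may be technical. The IP and the gradient were separate experiments with separate total RNA. The isolation method and the experiment therefore cannot be told apart, whatever gene is considered.

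A ribosome IP captures RNA attached to any particle that contains the tagged subunit. A gradient sorts particles by size, so that pooled 60S, 80S and polysome fractions hold free large subunits, single ribosomes and chains of ribosomes together with any other particle of that size. RPL-22 belongs to the large subunit of the cytosolic ribosome. Mitochondria translate their own mRNAs on a separate set of ribosomes that lacks this protein.

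The deposited values are normalized counts, scaled separately in the IP table and the gradient table. Sums per library ran from 24700000 to 40100000 normalized counts, and the estimated depth from 20100000 to 60300000 reads, both rounded. On the log2 scale, pairs of replicates correlated at 0.971 to 0.993 over genes. Replicate 3 of the IP experiment's total RNA stood apart: its sum was the highest of all libraries, and limma gave it the lowest library weight, 0.161, against 0.438 to 2.426 in the other libraries. The main counts, and those that move with it, are therefore also given without it. Markers of 7 tissues (intestine, body wall muscle, neurons, germline and oocyte, sperm, epidermis and pharynx) were read in all 12 libraries, each marker found in the tables being above 0 in each, but their shares differed between the experiments. The 6 germline and oocyte markers summed to 0.228 to 0.286% of the IP libraries and 0.319 to 0.503% of their total RNA, against 0.783 to 0.987% of the pooled fractions and 1.17 to 1.302% of their total RNA. In total RNA, body wall muscle markers took 0.903 to 1.09% in the IP experiment and 0.384 to 0.492% in the gradient experiment. Epidermis markers took 0.310 to 0.372% and 0.130 to 0.163%, and sperm markers 0.0536 to 0.0697% and 0.0309 to 0.0334%. Intestine markers were lower in total RNA of the IP experiment, and those of neurons and pharynx overlapped. In RNA from whole animals, fewer cells of a type and less RNA per cell cannot be told apart.

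For each gene the enrichment by IP is the log2 ratio of IP to its total RNA, the enrichment by gradient is the log2 ratio of pooled fractions to their total RNA, and the difference is the first minus the second. A positive difference means that the gene was more enriched, or less depleted, by IP than by the gradient. Values were log2(normalized count + 1), which understates the change of low genes. The difference was tested by limma's interaction term over the 13685 genes whose mean reached 10 in both tables, with Benjamini-Hochberg adjusted p under 0.05 as the threshold.

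Enrichment differed between the IP experiment and the gradient experiment for a large part of the genes tested, with method and experiment not separable. The difference was positive for 1612 genes, 11.8% of those tested, and negative for 1631 genes, 11.9%, together 23.7%. Of these, 1072 genes were over 2-fold higher and 789 over 2-fold lower. Without replicate 3 of the IP experiment's total RNA, 1691 genes were higher and 1906 lower, and these include 1496 and 1510 of the genes called with it. Without replicate 3 of the gradient's total RNA, 1069 genes were higher. When the libraries were scaled to an equal sum, the median difference of all genes was 0.20 in place of -0.03, a shift of 0.24 on the log2 scale, and the calls became 1203 higher and 492 lower. Where that scaling turns the median of a list or moves its count by over 1.5 times, the value under it is given beside the list.

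The calls came from either arm. IP over total RNA passed the threshold for 43.6% of genes, 2853 higher (20.8%) and 3108 lower (22.7%), and pooled fractions over total RNA for 40.4%, 2639 higher (19.3%) and 2896 lower (21.2%). Among the 1612 genes with a positive difference, 834 were past the threshold in the IP arm alone in that direction, 418 were past it only in the gradient arm as lower than total RNA, and 211 were higher in the IP and lower in the pooled fractions at once. Among the 1631 genes with a negative difference, 585 were lower in the IP arm alone, 601 were higher in the gradient arm alone, and 181 were lower in the IP and higher in the pooled fractions at once. A further 190 were below total RNA by both methods and further below by IP.

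**Figure D1:**
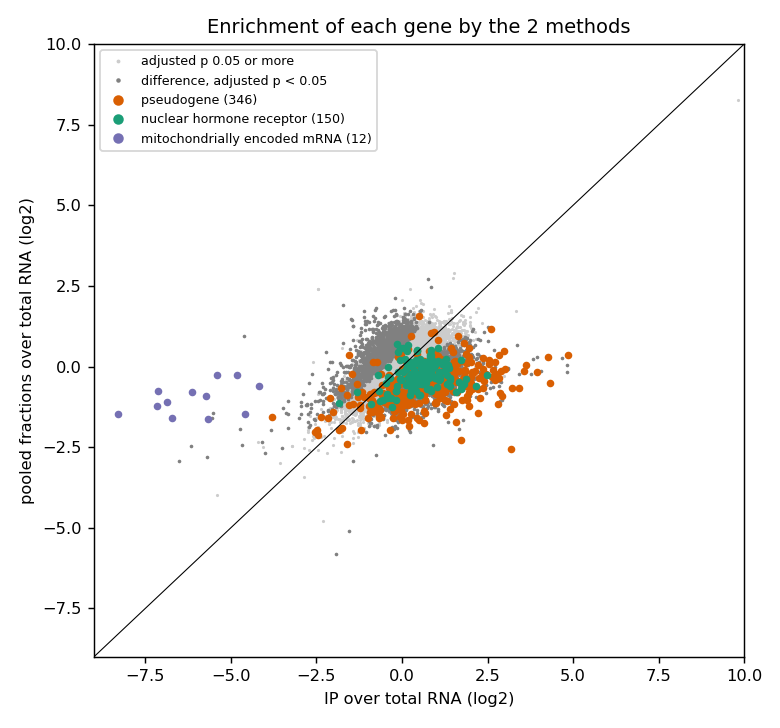
Enrichment of each of the 13685 genes by IP (horizontal axis, log2 IP over total RNA) and by gradient (vertical axis, log2 pooled fractions over total RNA), with the line of equal enrichment. The 12 mitochondrially encoded mRNAs lie far to the left, and most of the 346 pseudogenes and 150 nuclear hormone receptor genes lie below the line.

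The gene that carries the tag was above total RNA by both methods. rpl-22 (chromosome II, 5055616-5056214 in WBcel235) had 253081, 238623 and 225680.0 normalized counts in the IP, against 89509, 103832 and 213530.0 in its total RNA. It had 87870.5, 75218 and 117040.0 normalized counts in the pooled fractions, against 47720.4, 49621 and 52429 in their total RNA. In each experiment all 3 fraction libraries were above all 3 total RNA libraries. The log2 enrichment was 0.93 by IP and 0.88 by gradient, and the difference of 0.05 ± 0.38 (SE) did not pass the threshold (limma adjusted p = 0.942). Under the 21 alternatives tried, the estimate lay between -0.20 and 0.43.

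The 12 mRNAs encoded in the mitochondrial genome had the lowest median difference of the lists examined. All 12 passed the threshold as lower in the IP comparison, beside 11.9% of all genes tested, with a median difference of -5.13 and a range of -6.83 to -3.10 on the log2 scale. They were depleted by both methods, by a median log2 of -5.93 in the IP, where 12 of 12 passed, and -1.01 in the pooled fractions, where 9 of 12 passed. Together they made up 0.0688, 0.0706 and 0.0834% of the IP libraries, against 3.44, 2.96 and 3.69% of their total RNA. They made up 0.480, 0.754 and 0.688% of the pooled fraction libraries, against 1.06, 0.754 and 1.02% of their total RNA. The groups did not overlap in the IP experiment, while in the gradient experiment the highest pooled library stood at the level of the lowest total RNA library. The total RNA groups themselves differed, the mitochondrial share being higher in that of the IP experiment.

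COX1, subunit 1 of cytochrome c oxidase (MtDNA:7827-9428 in WBcel235), had the highest counts of the 12. It had 5515, 6044 and 6380.1 normalized counts in the IP, against 225247, 220407 and 321936 in its total RNA. In the pooled fractions it had 75261, 99731 and 97124, against 107649, 95301 and 120873 in their total RNA. The IP libraries lay far below all others, and the pooled fractions overlapped their total RNA. Its difference was -5.14 ± 0.28 (SE, limma adjusted p = 1.26e-08). ND2, a subunit of respiratory complex I (MtDNA:3389-4269), had the largest difference of the list, -6.83 ± 0.51 (SE, limma adjusted p = 2.53e-07). It had 148, 189.5 and 315 normalized counts in the IP, against 43354, 46763 and 140788 in its total RNA, and 2815, 3320.3 and 3328 in the pooled fractions, against 8383, 6702 and 11939.5 in theirs. ND3, also of complex I, had the smallest, -3.10 ± 0.38 (SE, limma adjusted p = 8.12e-05). All 12 kept their call when each library was left out in turn, and the median without replicate 3 of the IP experiment's total RNA was -4.85.

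**Figure D2:**
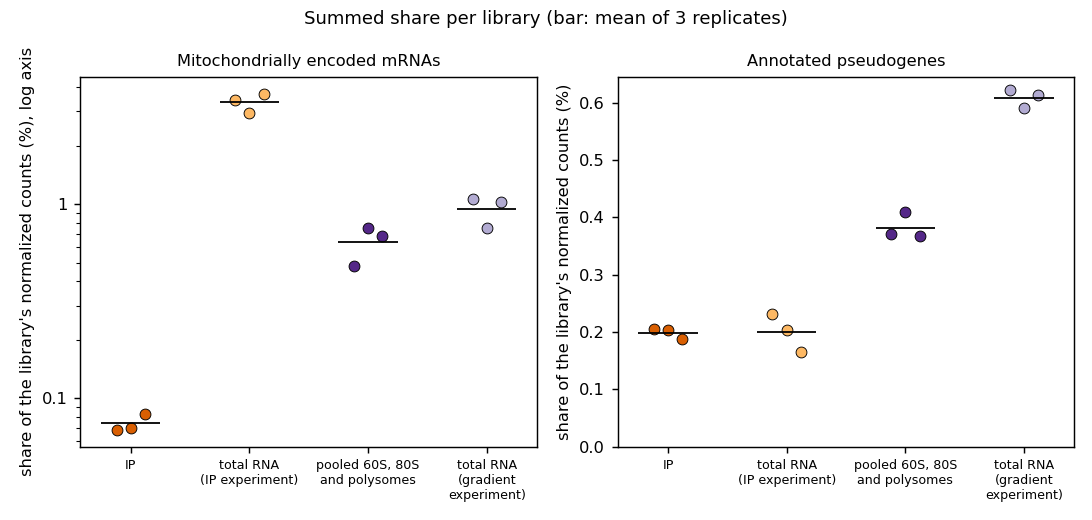
Summed share of each library's normalized counts (%) taken by the mitochondrially encoded mRNAs (left, log axis) and by annotated pseudogenes (right, axis from 0); points are the 3 replicates of each group and bars their mean. The 3 IP libraries hold 0.0688 to 0.0834% mitochondrially encoded mRNA, below all other libraries. The pseudogene share is 0.187 to 0.205% in the IP, overlapping 0.166 to 0.232% in its total RNA, and 0.367 to 0.409% in the pooled fractions, against 0.591 to 0.622% in theirs.

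Nuclear genes for mitochondrial proteins, which are translated on cytosolic ribosomes, were also less enriched by IP than by gradient, to a much smaller extent. Of 65 genes for nuclear-encoded subunits of oxidative phosphorylation, all tested, 32 were lower in the IP comparison (49.2%, beside 11.9% of all genes) and 0 higher, with a median difference of -0.72. Medians of this size were not limited to mitochondrial proteins: transthyretin-like genes had -0.81 and vacuolar ATPase genes -0.67, while spliceosome genes had 0.06. Their median log2 was -0.12 in the IP and 0.55 in the pooled fractions, where 38 of the 65 were above total RNA. nduf-7, a complex I subunit, had 9509, 9467 and 9484 normalized counts in the IP, against 10174, 11126 and 19241 in its total RNA, and 10568, 9211 and 12890.1 in the pooled fractions, against 5239, 5292 and 5404 in theirs. The fraction libraries were below total RNA in the one experiment and above it in the other, and the difference was -1.47 ± 0.28 (SE, limma adjusted p = 0.00222). The level of nduf-7 in total RNA was higher in the IP experiment than in the gradient experiment, in tables scaled separately. atp-2, the beta subunit of ATP synthase, differed by -0.93 ± 0.27 (limma adjusted p = 0.0203), a call that was lost with the replicate number as a block, without IP replicate 2 and without pooled-fraction replicate 3. The count of 32 was 20 with libraries scaled to an equal sum, 20 without pooled-fraction replicate 3, 20 without gradient total RNA replicate 1, and 30 without replicate 3 of the IP experiment's total RNA.

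Of 66 mitochondrial ribosomal protein genes, 29 were lower (43.9%, beside 11.9% of all genes) and 1, mrpl-28, was higher, with a median difference of -0.63. The count of 29 was 19 without gradient total RNA replicate 2 and 11 with libraries scaled to an equal sum, and 2 were higher under that scaling, with the replicate number as a block, and without gradient total RNA replicate 1, pooled-fraction replicate 1 or replicate 3 of the IP experiment's total RNA. mrpl-21 had 697, 685 and 644 normalized counts in the IP, against 1197, 1413 and 1499.8 in its total RNA, and 1004, 983 and 1379.6 in the pooled fractions, against 933, 829.7 and 887 in theirs. It was below total RNA in every IP library and above it in every pooled-fraction library, with a difference of -1.34 ± 0.22 (SE, limma adjusted p = 0.000686). mrpl-28 differed by 0.78 ± 0.20 (limma adjusted p = 0.0104).

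Cytosolic ribosomal protein mRNAs had mostly negative estimates, with few genes past the threshold. Of 81 cytosolic ribosomal protein genes, 79 had a negative difference and the median was -0.60, but 7 passed as lower, 8.64% beside 11.9% of all genes, and 0 as higher. The replicate spread of these genes was wide. rpl-39 had 65372, 63373 and 62393 normalized counts in the IP, against 65105, 78133 and 223684 in its total RNA, where replicate 3 stood far above the other replicates. The difference of rpl-39 was -1.57 ± 0.46 (SE, limma adjusted p = 0.0225). The count of 7 was 9 without that library, 23 with libraries scaled to an equal sum and 37 without replicate 1 of the same group. It was 0 to 3 without any 1 of IP replicates 1 to 3, pooled-fraction replicates 1 and 3 and gradient total RNA replicates 1 to 3. The ribosomal protein mRNAs took 27.9 to 29.1% of the IP libraries and 24.3 to 33.3% of their total RNA, against 15.9 to 19.5% of the pooled fractions and 12.01 to 12.94% of theirs.

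Among 12 translation elongation and release factors, 6 were lower (50%, beside 11.9% of all genes) and 0 higher, with a median difference of -0.66. eef-1B.1, a subunit of the exchange factor for elongation factor 1A, had 11204, 11879 and 13102 normalized counts in the IP, against 24044, 33412 and 66726 in its total RNA. It had 29923, 25603 and 31367 in the pooled fractions, against 25209.5, 29727 and 31914 in theirs. The IP libraries were all below total RNA and the pooled fractions overlapped it, for a difference of -1.65 ± 0.37 (SE, limma adjusted p = 0.00588). Its partner subunit eef-1B.2 differed by -1.50 ± 0.36 (limma adjusted p = 0.0082). eef-1A.1, which delivers aminoacyl-tRNA to the ribosome, differed by -0.54 ± 0.33 and did not pass (limma adjusted p = 0.251). Of 39 initiation factor genes, 10 were lower (25.6%) and 0 higher, with 20 lower without replicate 1 of the IP experiment's total RNA and 6 under equal-sum scaling. Among those called, eif-3.F, a subunit of initiation factor 3, differed by -1.19 ± 0.23 (limma adjusted p = 0.00214) and the factor inf-1, an eIF4A homologue, by -1.01 ± 0.20 (limma adjusted p = 0.00267). Of 31 aminoacyl-tRNA synthetases, 9 were lower, among them wars-1 (-1.21 ± 0.26) and yars-1 (-1.05 ± 0.20), and 1, yars-2, was higher. The count of 9 was 5 without IP replicate 1 and 3 under equal-sum scaling. The call of yars-2, the only one higher, was lost under equal-sum scaling, with the authors' deposited fold changes, and without any 1 of IP replicates 1 to 3, pooled-fraction replicate 2 and gradient total RNA replicates 2 and 3. The 22 vacuolar ATPase genes, for the proton pump of lysosomes and related membranes, had 9 lower (40.9%) and 0 higher, a median of -0.67 and negative estimates throughout, with vha-5 at -1.53 ± 0.20 (limma adjusted p = 0.000126), and 2 lower under equal-sum scaling. Of 33 proteasome genes, 4 were lower and 0 higher, and the lower share of 12.1% was near the 11.9% of all genes. The count of 4 was 9 without replicate 1 of the IP experiment's total RNA, 7 without pooled-fraction replicate 2 and 1 under equal-sum scaling.

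**Figure D3:**
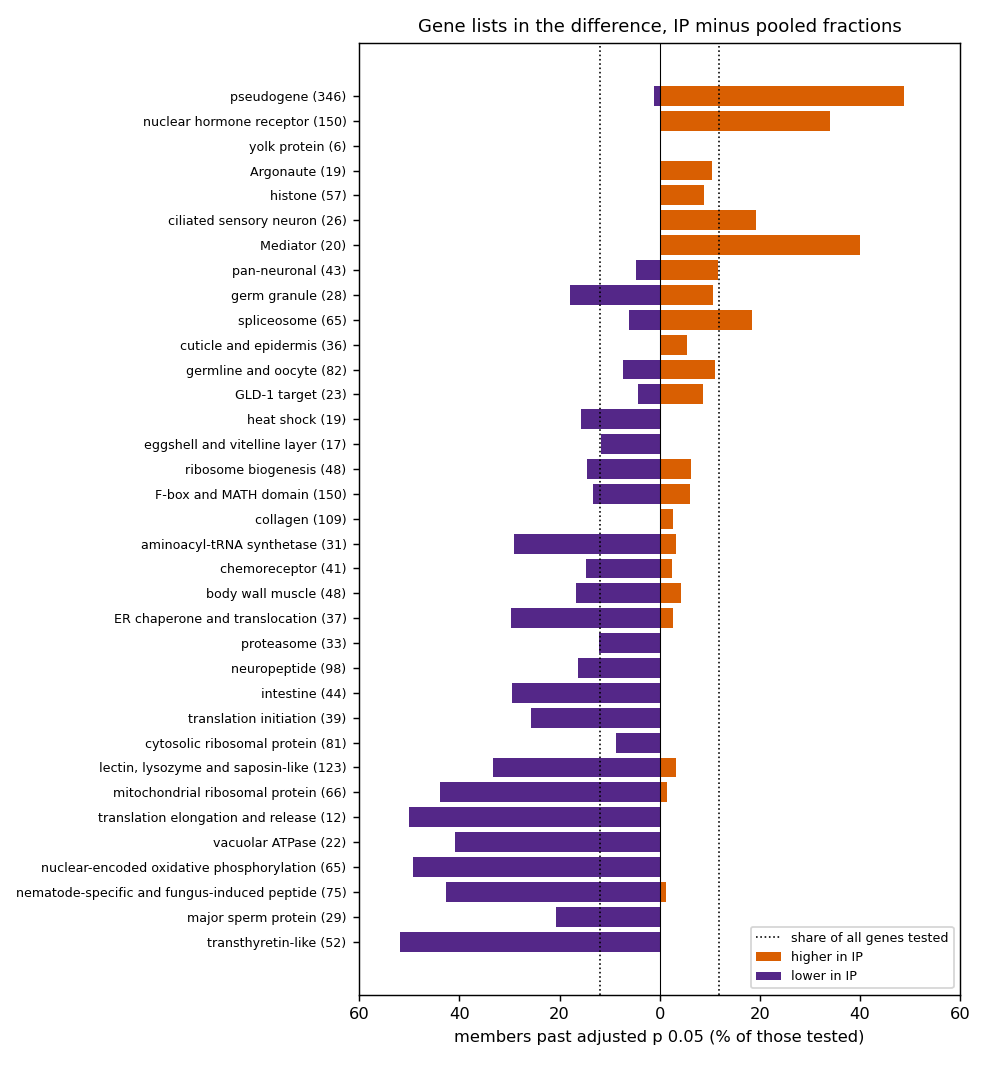
Share of each list's tested members (number in brackets) past the threshold in the difference, lower in the IP comparison to the left and higher to the right; the dotted lines mark the share among all genes tested, 11.8% higher and 11.9% lower. Pseudogenes, nuclear hormone receptors and Mediator subunits, all lists added after values were seen, extend furthest to the right. Transthyretin-like genes, elongation factors and oxidative phosphorylation genes extend furthest to the left. The nematode-specific and fungus-induced peptide list was also added after values were seen. The 12 mitochondrially encoded mRNAs, all lower, and the noncoding RNA classes are left out.

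Genes annotated as pseudogenes, whose transcripts carry no intact reading frame, were the clearest group in the opposite direction. This class was added after its values were seen. Of 894 listed, 346 passed the filter on low values, and of those 169 were higher, 48.8% beside 11.8% of all genes, and 4 were lower. The median difference was 1.1, with a median log2 of 0.62 in the IP and -0.53 in the pooled fractions. The counts were 176 higher and 4 lower without replicate 3 of the IP experiment's total RNA. The summed share of all pseudogenes did not separate the IP from its total RNA: it was 0.205, 0.203 and 0.187% of the IP libraries, against 0.232, 0.204 and 0.166% of their total RNA. It was 0.371, 0.409 and 0.367% of the pooled fractions, against 0.622, 0.591 and 0.614% of theirs, so the share in total RNA was also higher in the gradient experiment than in the IP experiment. With the filter set on total RNA alone, 126 of 287 were higher and 4 lower, and with a mean of at least 100 in both experiments, 38 of 75 were higher and 3 lower. The count of 4 was 2 under equal-sum scaling, 2 without IP replicate 3, 2 without pooled-fraction replicate 3 and 7 without replicate 1 of the IP experiment's total RNA. WBGene00004179 (chromosome IV, 6526962-6529802), among those with the highest counts, had 4109, 4916 and 4019 normalized counts in the IP, against 693, 630.4 and 417 in its total RNA. In the pooled fractions it had 10486, 11613 and 8529, against 17329, 18666 and 22042 in theirs. Its level in total RNA was thus far lower in the IP experiment than in the gradient experiment. The gene was above total RNA in every IP library and below it in every pooled-fraction library, with a difference of 3.86 ± 0.27 (SE, limma adjusted p = 1.26e-07). WBGene00018862 behaved the same way, with a difference of 2.94 ± 0.24 (limma adjusted p = 8.83e-07), while WBGene00014309 was lower, with a difference of -1.24 ± 0.23 (limma adjusted p = 0.00157). Reads of a pseudogene can be shared with its functional copy, so these values are uncertain for any pseudogene with a near-identical copy.

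Noncoding RNAs had calls in both directions, as all genes had. Of 524 listed, 133 passed the filter, 20 were higher (15.0%) and 23 lower (17.3%), beside 11.8% and 11.9% of all genes. The counts were 23 higher and 20 lower without replicate 3 of the IP experiment's total RNA. Without gradient total RNA replicate 2, 13 were lower, as under equal-sum scaling. Of the 133, 53 were below total RNA in the IP and 59 in the pooled fractions. The median difference was -0.15, which became 0.06 under equal-sum scaling and 0.07 without replicate 3 of the IP experiment's total RNA. lep-5, a long noncoding RNA of developmental timing, had 1373, 1266 and 1216 normalized counts in the IP, against 7805, 7013 and 12691 in its total RNA. It had 2144, 1868 and 2307 in the pooled fractions, against 5162, 4479 and 4595 in theirs. Both kinds of fraction lay below their total RNA, and the difference was -1.61 ± 0.26 (SE, limma adjusted p = 0.000711). The ncRNA T05E11.9 had 211, 219 and 215 normalized counts in the IP, against 10394, 10724 and 32577 in its total RNA, and 532, 587 and 614 in the pooled fractions, against 3685, 3031 and 2934 in theirs, for a difference of -3.68 ± 0.42 (limma adjusted p = 3.72e-05). The level of T05E11.9 in total RNA was higher in the IP experiment than in the gradient experiment. rncs-1, a noncoding RNA that inhibits the small RNA enzyme Dicer, differed by -1.86 ± 0.53 (limma adjusted p = 0.0184). In the other direction the lincRNA Y9D1A.1 had 232, 271 and 115 normalized counts in the IP, against 5.91, 8.07 and 5.92 in its total RNA, and 2294, 1059 and 1542 in the pooled fractions, against 1251, 1164 and 1459.9 in theirs. The IP libraries were well above total RNA and the pooled fractions overlapped it, for a difference of 4.41 ± 0.41 (limma adjusted p = 5.02e-06). Its total RNA counts in the IP experiment were below 10, so it passed the filter there only through its IP libraries. Its level in total RNA was also far lower in the IP experiment than in the gradient experiment, in tables scaled separately. These counts rest on small classes: 9 of 41 lincRNAs were higher and 5 lower, 8 of 77 other ncRNAs higher and 16 lower, and 1 of 11 snoRNAs higher and 2 lower. When single libraries were left out, lower lincRNAs numbered 2 to 5 (2 without IP replicate 1, pooled-fraction replicate 2 or gradient total RNA replicate 2), higher other ncRNAs 5 (gradient total RNA replicate 3) to 11 and lower ones 10 (gradient total RNA replicate 2) to 17. Under equal-sum scaling 2 lincRNAs, 10 other ncRNAs and 1 snoRNA were lower, and the snoRNA median of -0.06 became 0.15. With the filter on total RNA alone, 6 of 36 lincRNAs were higher and 5 lower, and their median of 0.35 became -0.13. Under that filter 0 of 13 snoRNAs were higher and 2 lower, and 8 of 80 other ncRNAs were higher and 16 lower. Of 4 antisense RNAs tested, anr-8 (2.58 ± 0.33) and anr-35 (1.76 ± 0.36) were higher. Whether the counting used strand is not given in the sources used here, so reads of an antisense RNA and its partner gene cannot be told apart.

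Among genes with a symbol of letters, hyphen and number, a mean of at least 500 normalized counts and libraries that did not overlap in at least 1 experiment, the 12 largest positive differences were those of rpa-4, nhr-114, nhr-76, pqn-70, zip-4, cdk-8, rbm-25, suds-3, nra-3, mys-4, taf-3 and gfl-1, ranging from 1.81 to 3.95. Each kept its call under all 21 alternatives. rpa-4, named for the single-strand DNA binding protein RPA (chromosome I, 5509467-5511705 in WBcel235), had the largest. It had 332, 357 and 375 normalized counts in the IP, against 33.4, 72.9 and 39.1 in its total RNA, and 852, 861 and 963 in the pooled fractions, against 1819.7, 1767 and 1861 in theirs. It was above total RNA in every IP library and below it in every pooled-fraction library, with a difference of 3.95 ± 0.30 (SE, limma adjusted p = 3.9e-07). Its level in total RNA was far lower in the IP experiment than in the gradient experiment, in tables scaled separately. The part of this in the difference was not tested.

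Of these 12, cdk-8, zip-4, mys-4 and taf-3 are described further. cdk-8, the kinase of the Mediator complex, had 414, 484 and 455 normalized counts in the IP, against 245, 229 and 167 in its total RNA, and 1606, 1436 and 1474 in the pooled fractions, against 2679.9, 2591 and 3073 in theirs. It was higher than total RNA in the one experiment and lower in the other, for a difference of 1.97 ± 0.22 (SE, limma adjusted p = 3.34e-05). The bZIP transcription factor gene zip-4 had the same pattern, with log2 0.84 in the IP and -1.15 in the pooled fractions. mys-4, a MYST-family histone acetyltransferase gene, had 138, 152 and 148 normalized counts in the IP, against 172, 129.6 and 77.1 in its total RNA, which overlapped. It had 826, 1038 and 558 in the pooled fractions, against 2477, 2122 and 2411 in theirs, so its difference of 1.85 ± 0.35 (limma adjusted p = 0.00202) came with the gradient arm, at log2 -1.57. taf-3, for a subunit of the general transcription factor TFIID, was the reverse, with log2 2.23 in the IP (limma adjusted p = 1.18e-07) and 0.38 in the pooled fractions (limma adjusted p = 0.0992). For cdk-8, zip-4 and mys-4 too, the level in total RNA was far lower in the IP experiment than in the gradient experiment.

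The nuclear hormone receptor family, the largest family of transcription factors in this animal, was added as a list after nhr-114 and nhr-76 had been seen among the largest differences. Of 208 genes listed, 150 passed the filter, 51 were higher and 0 lower, beside 11.8% higher among all genes. The median difference was 0.79, with a median log2 of 0.57 in the IP and -0.26 in the pooled fractions. The count was 51 without replicate 3 of the IP experiment's total RNA and 36 to 54 when each library was left out in turn. With a mean of at least 100 in both tables, 20 of 44 were higher, and with the filter on total RNA alone, 45 of 140 were higher and 1 lower. With the authors' deposited fold changes 32 were higher and 1 lower. nhr-114, with the highest counts, had 6064, 6397 and 7105 normalized counts in the IP, against 994, 1045 and 1531 in its total RNA. It had 9766, 9112 and 9129 in the pooled fractions, against 10146, 11336 and 12025 in theirs. The difference was 2.73 ± 0.23 (SE, limma adjusted p = 1.27e-06), with most of it in the IP arm. The level of nhr-114 in total RNA was also far lower in the IP experiment than in the gradient experiment. The members nhr-66 (0.42 ± 0.25), nhr-97 (-0.73 ± 0.29) and nhr-23 (0.47 ± 0.47) did not pass (limma adjusted p = 0.245, 0.073 and 0.48), though nhr-97 passed as lower with the replicate number as a block. Of 20 Mediator subunit genes, a set likewise added after values were seen, 8 were higher and 0 lower, and 5 were higher without gradient total RNA replicate 3. mdt-6 differed by 1.18 ± 0.27 (limma adjusted p = 0.0056), while mdt-15, a partner of nuclear hormone receptors in lipid metabolism, differed by 0.16 ± 0.31 and did not pass (limma adjusted p = 0.723).

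**Figure D4:**
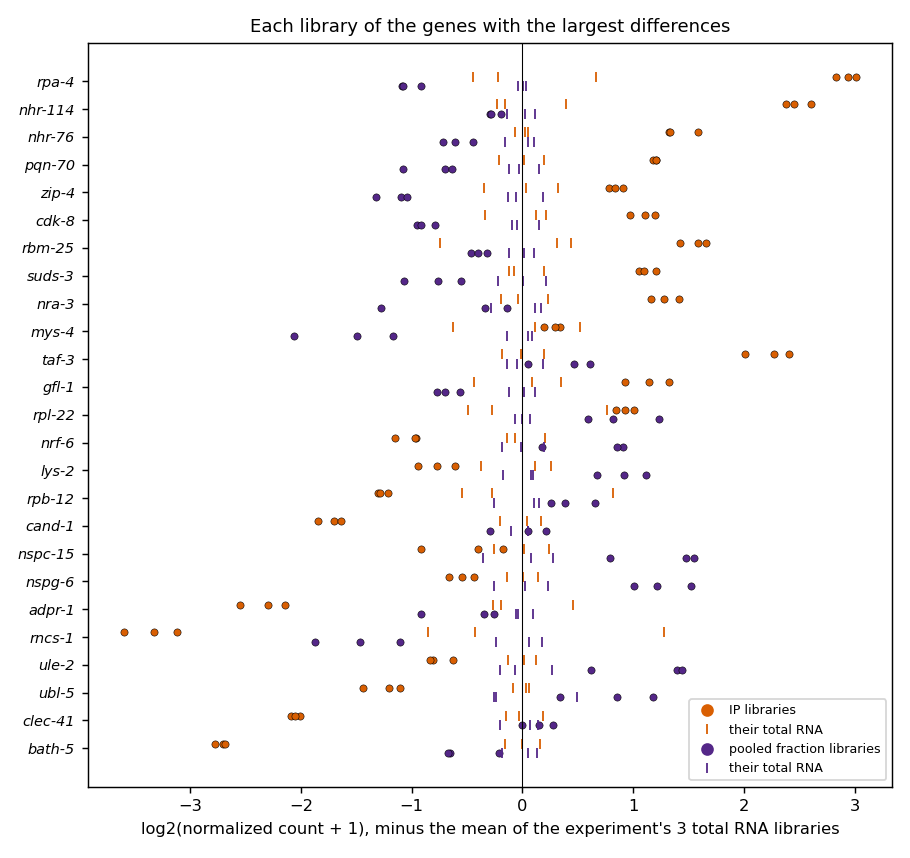
Each library of the tagged gene and of the 12 largest positive and 12 largest negative differences among genes with a hyphenated symbol and a mean of at least 500 (the mitochondrially encoded mRNAs are not among them), as log2(normalized count + 1) minus the mean of the 3 total RNA libraries of its own experiment; filled circles are IP (orange) and pooled-fraction (purple) libraries and ticks of the same colour their total RNA. For rpa-4 all IP circles lie to the right of total RNA and all pooled-fraction circles to its left, and for nspg-6 the reverse holds.

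Of 65 spliceosome genes, 12 were higher (18.5%) and 4 lower (6.15%), beside 11.8% and 11.9% of all genes, with a median of 0.06. mog-3, a splicing factor of germ cell sex determination, differed by 1.17 ± 0.29 (limma adjusted p = 0.0089), and lsm-3, of the U6-binding LSM ring, by -1.31 ± 0.24 (limma adjusted p = 0.00153). The count of 4 was 8 with the authors' deposited fold changes, 1 under equal-sum scaling, 1 without IP replicate 3 and 12 without replicate 1 of the IP experiment's total RNA. It was 2 without any 1 of IP replicates 1 and 2, pooled-fraction replicate 3 and gradient total RNA replicates 1 and 2. Of 57 histone genes tested out of 80, 5 were higher and 0 lower, or 8.77% and 0% beside 11.8% and 11.9% of all genes. The count of 5 was 9 under equal-sum scaling, 10 without replicate 3 of the IP experiment's total RNA and 2 without gradient total RNA replicate 3. The linker histone gene hil-4 differed by 0.88 ± 0.25 (limma adjusted p = 0.0187). Many core histone genes are near-identical copies, so the counts of single members are uncertain.

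Under the same limits on symbol, mean count and separated libraries, which leave out the mitochondrially encoded mRNAs by their symbols, the 12 largest negative differences were those of bath-5, clec-41, ubl-5, ule-2, rncs-1, adpr-1, nspg-6, nspc-15, cand-1, rpb-12, lys-2 and nrf-6, from -2.21 to -1.67. They kept their calls under all 21 alternatives except nspc-15, which was lost when libraries were scaled to an equal sum. bath-5, a gene with a BTB and a MATH domain (chromosome II, 2030753-2031952), had 200.3, 211 and 214 normalized counts in the IP, against 1236, 1374 and 1537 in its total RNA. It had 613, 604 and 832 in the pooled fractions, against 1055, 850.0 and 996 in theirs. It was below total RNA by both methods and further below by IP, with a difference of -2.21 ± 0.22 (SE, limma adjusted p = 1.18e-05). cand-1, a regulator of cullin ubiquitin ligases, had 1268, 1398 and 1465 normalized counts in the IP, against 3955, 4695 and 5106 in its total RNA, and 4902, 5486 and 3878 in the pooled fractions, against 4421, 4929 and 4904 in theirs. The IP libraries stood below total RNA and the pooled fractions overlapped it, for a difference of -1.72 ± 0.22 (limma adjusted p = 0.0001). ubl-5, a ubiquitin-like regulator of the mitochondrial unfolded protein response, had log2 -1.25 in the IP and 0.79 in the pooled fractions, a difference of -2.04 ± 0.31 (limma adjusted p = 0.000399).

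Families of small secreted proteins had many members lower in the IP comparison. Of 52 transthyretin-like genes tested out of 57, 27 were lower (51.9%, beside 11.9% of all genes) and 0 higher, with a median difference of -0.81 and a median log2 of 0.07 in the IP and 0.99 in the pooled fractions. The count was 17 without gradient total RNA replicate 3 and 11 under equal-sum scaling. ttr-15 had 18881, 18644 and 19319 normalized counts in the IP, against 13569, 14343 and 22918 in its total RNA, which overlapped. It had 14846, 14354 and 17224 in the pooled fractions, against 6747, 7389.9 and 6864 in theirs, which did not. Its difference was -0.94 ± 0.26 (SE, limma adjusted p = 0.0151). The level of ttr-15 in total RNA was higher in the IP experiment than in the gradient experiment. The nematode-specific and fungus-induced peptide genes, a set added after values were seen, had 32 of 75 lower (42.7%) and 1 higher, with a median of -0.74 and 13 lower under equal-sum scaling. nspg-6 had log2 -0.55 in the IP and 1.25 in the pooled fractions. A list of 209 C-type lectins, lysozymes and saposin-like proteins includes immune effectors of the gut. Of these, 86 did not pass the filter on low values, and of the rest 41 were lower (33.3%) and 4 higher, with a median of -0.62 and 17 lower under equal-sum scaling. The lectin gene clec-41 differed by -2.19 ± 0.20 (limma adjusted p = 4.74e-06) and the lysozyme gene lys-2 by -1.67 ± 0.25 (limma adjusted p = 0.000373). lys-2 had 1371, 1226 and 1086 normalized counts in the IP, against 2496, 1609 and 2264 in its total RNA, and 1888, 2234 and 2566 in the pooled fractions, against 1268, 1250.1 and 1046 in theirs. It moved in opposite directions in the 2 experiments, and its level in total RNA was higher in the IP experiment.

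Tissue lists showed no common direction. Of 44 intestine genes, 13 were lower (29.5%, beside 11.9% of all genes) and 0 higher, with a median of -0.51. Under equal-sum scaling 8 were lower and 3 higher. ges-1, a gut esterase, had 257, 234 and 271 normalized counts in the IP, against 392, 369.6 and 358 in its total RNA, and 414, 461 and 519.6 in the pooled fractions, against 213, 284 and 243 in theirs, a difference of -1.47 ± 0.22 (SE, limma adjusted p = 0.000399). The 6 yolk protein genes, also of the intestine, had 0 calls in either direction and a median of 0.37. With libraries scaled to an equal sum, 3 of them were higher. vit-2 differed by 0.57 ± 0.30 (limma adjusted p = 0.178). The 7 intestine markers summed to 1.57 to 1.89% of the IP libraries and 1.13 to 1.34% of their total RNA, against 2.11 to 2.495% of the pooled fractions and 1.78 to 2.26% of theirs, and the part of this in the differences was not tested.

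Of 48 body wall muscle genes, 8 were lower (16.7%) and 2 higher (4.17%), beside 11.9% and 11.8% of all genes. The lower genes numbered 3 without IP replicate 2 and 3 without gradient total RNA replicate 3. The count was 5 without IP replicate 1 and 5 without pooled-fraction replicate 1. Under equal-sum scaling 3 were lower and 1 higher. unc-22, which encodes the giant muscle protein twitchin, differed by 1.15 ± 0.40 (limma adjusted p = 0.0474), and pat-6, a protein of muscle attachments, by -1.15 ± 0.21 (limma adjusted p = 0.00138). The call of unc-22 was lost under equal-sum scaling and without 9 of the 12 libraries in turn. The muscle list took 2.45 to 2.58% of total RNA in the IP experiment and 1.18 to 1.51% in the gradient experiment. The part of this in the differences was not tested. Of 43 pan-neuronal genes, 5 were higher (11.6%) and 2 lower (4.65%), neither share above that of all genes, and 3 were higher and 0 lower under equal-sum scaling. The count of 2 was 1 without any 1 of IP replicate 1, pooled-fraction replicate 3 and gradient total RNA replicates 2 and 3. syd-2, a liprin of the presynaptic active zone, was higher, with a difference of 1.69 ± 0.43 (limma adjusted p = 0.0108), and snt-1, the synaptotagmin of synaptic vesicles, lower, with a difference of -1.13 ± 0.27 (limma adjusted p = 0.00809). Of 98 neuropeptide genes, 16 were lower (16.3%, beside 11.9% of all genes) and 0 higher. The count of 16 was 2 without gradient total RNA replicate 3, 5 without IP replicate 2 and 7 without IP replicate 1. It was 8 without gradient total RNA replicate 2 and 10 without pooled-fraction replicate 1. Under equal-sum scaling, 2 were lower. nlp-17 differed by -2.40 ± 0.50 (limma adjusted p = 0.00346).

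Germline and oocyte genes were often below total RNA in either experiment. Of 82 germline and oocyte genes, 49 were below total RNA in the IP and 58 in the pooled fractions, with median log2 values of -0.65 and -0.72. In the difference 9 were higher (11%) and 6 lower (7.32%), neither share above that of all genes, with a median of -0.01, which became 0.23 when libraries were scaled to an equal sum, where 3 were higher and 2 lower. The count of 9 was 2 or 3 without any 1 IP library or gradient total RNA replicates 2 or 3, and 5 without pooled-fraction replicates 2 or 3. The count of 6 was 1 to 3 without any 1 IP library, IP-experiment total RNA replicate 2, gradient total RNA replicates 1 or 2, or pooled-fraction replicates 1 or 3, and 9 without replicate 3 of the IP experiment's total RNA. meg-1, an intrinsically disordered protein of P granules, had 680.4, 892 and 648 normalized counts in the IP, against 696, 774 and 337 in its total RNA, which overlapped. It had 2897, 3090.5 and 1682 in the pooled fractions, against 4842, 6579 and 6201 in theirs, which did not, and the difference was 1.61 ± 0.39 (SE, limma adjusted p = 0.00871). The level of meg-1 in total RNA was also far lower in the IP experiment than in the gradient experiment. The germline genes cbd-1, cpg-1 and cey-2 differed by 0.10 ± 0.34, -0.11 ± 0.30 and -0.13 ± 0.27 and did not pass (limma adjusted p = 0.847, 0.812 and 0.752). Of 23 mRNAs bound by the translational repressor GLD-1, all tested, 17 were below total RNA in the IP and 18 in the pooled fractions. In the difference 2 were higher (8.70%) and 1 lower (4.35%), with a median of -0.07, which became 0.17 under equal-sum scaling, where 0 were called. Without replicate 3 of the IP experiment's total RNA 1 was higher and 3 were lower. Without any 1 of the IP libraries, pooled-fraction replicates 2 and 3 and gradient total RNA replicates 2 and 3, 0 or 1 was higher, and 2 were lower without replicate 1 of the IP experiment's total RNA.

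ppw-1, an Argonaute gene of the RNA interference pathway, was 1 of 2 genes higher among 19 Argonaute genes tested, 10.5% beside 11.8% of all genes, with 0 lower. It had 3196, 3216 and 3356 normalized counts in the IP, against 1722, 1748 and 1388 in its total RNA, and 10538, 9688 and 7317 in the pooled fractions, against 12075, 13433 and 15067 in theirs. Its level in total RNA was also far lower in the IP experiment than in the gradient experiment. Its difference was 1.58 ± 0.23 (SE, limma adjusted p = 0.000259). The other, rde-1, also of RNA interference, differed by 1.21 ± 0.40 (limma adjusted p = 0.0374), and the count of 2 was 1 under equal-sum scaling and without any 1 of the IP libraries, pooled-fraction replicates 2 and 3 and the gradient total RNA libraries. The germline and oocyte list took 1.43 to 1.59% of the IP libraries and 1.51 to 2.36% of their total RNA, against 2.74 to 3.37% of the pooled fractions and 4.60 to 4.97% of theirs. The share of the germline list in total RNA thus differed between the experiments, and its part in the differences was not tested.

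Major sperm protein genes, near-identical copies whose single counts are uncertain, were mostly above total RNA in the pooled fractions. In the pooled fractions 28 of 29 were above total RNA, with a median log2 of 0.98, and in the IP 0 passed in either direction, with a median of 0.26. In the difference 6 were lower (20.7%, beside 11.9% of all genes) and 0 higher, with a median of -0.76. That count was 10 with the replicate number as a block, 20 and 16 without replicate 1 or replicate 2 of the IP experiment's total RNA, 8 without its replicate 3, and 1 to 3 without any 1 IP library, pooled-fraction replicates 1 or 3 or gradient total RNA replicates 1 or 3. msp-142 had 5856, 5285 and 5710.2 normalized counts in the IP, against 5213, 5205 and 13219.9 in its total RNA, where replicate 3 was high. It had 4127, 3410.1 and 4176 in the pooled fractions, against 1928, 2186 and 1990.4 in theirs. The IP overlapped its total RNA and the pooled fractions did not, for a difference of -1.28 ± 0.36 (SE, limma adjusted p = 0.0193). The major sperm protein list took 1.18 to 1.33% of the IP libraries and 0.792 to 1.09% of their total RNA. It took 0.608 to 0.740% of the pooled fractions and 0.319 to 0.350% of theirs. The share in total RNA thus differed between the experiments, and its part in the differences was not tested.

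Of 37 genes for chaperones and translocation of the endoplasmic reticulum, 11 were lower (29.7%) and 1 higher. The count of 11 was 2 to 6 without any 1 of the IP libraries, the pooled-fraction replicates 1 and 2, the gradient total RNA libraries and replicate 2 of the IP experiment's total RNA, 2 under equal-sum scaling and 5 with the replicate number as a block. The disulfide isomerase gene pdi-1 was among them (-0.96 ± 0.24, limma adjusted p = 0.00946), while xbp-1, a transcription factor of the unfolded protein response, was higher (0.83 ± 0.20, limma adjusted p = 0.00755). Of 48 ribosome biogenesis genes, 3 were higher (6.25%) and 7 lower (14.6%), beside 11.8% and 11.9% of all genes. The counts ranged over 1 to 7 and 4 to 11 when each library was left out, with 7 higher under the replicate block. Under equal-sum scaling the median of -0.13 became 0.11 and 1 was lower. Of 28 germ granule genes, 3 were higher (10.7%) and 5 lower (17.9%), ranging over 1 to 4 and 2 to 5, and 0 were lower under equal-sum scaling. Of 17 eggshell genes, 0 were higher and 2 lower (11.8%), the lower count being 5 without replicate 3 of the IP experiment's total RNA. Under equal-sum scaling 1 was lower and the median of -0.11 became 0.13. Of 26 ciliated neuron genes tested out of 54, 5 were higher (19.2%) and 0 lower. The counts ranged over 2 to 5 and 0 to 2, with 2 higher under equal-sum scaling. Of 109 collagen genes that passed the filter on low values, 3 were higher and 0 lower, and of 36 cuticle and epidermis genes 2 were higher and 0 lower, beside a background of 11.8% and 11.9%. Collagens had 5 lower without replicate 2 of the IP experiment's total RNA, and the higher cuticle genes numbered 0 to 4 over the libraries left out and 1 under equal-sum scaling, where their median of -0.0026 became 0.24. Collagens took 5.28 to 6.18% of total RNA in the IP experiment and 2.67 to 3.10% in the gradient experiment. Cuticle and epidermis genes took 0.0386 to 0.0464% and 0.0291 to 0.0336%, and the part of this in the differences was not tested. Of 19 heat shock genes, 0 were higher and 3 lower (15.8%), ranging over 0 to 5 for the lower ones. Under equal-sum scaling 1 was lower and the median of -0.11 became 0.13. Of 150 genes with an F-box or a MATH domain tested out of 329, 9 were higher (6%) and 20 lower (13.3%). The median of -0.21 became 0.02 under equal-sum scaling, where 4 were lower. The count of 20 was 13 without any 1 of pooled-fraction replicate 3 and gradient total RNA replicates 2 and 3. A list of 230 chemoreceptor-type symbols, which holds some genes of other function, had 41 tested, 1 higher (2.44%) and 6 lower (14.6%). It had 3 lower under equal-sum scaling and 2 higher with the replicate block.

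The median difference varied with the length of the coding sequence. Among 13200 protein-coding genes, the median difference was -0.41 for the 736 genes of up to 300 nt and 0.29 for the 341 genes over 4500 nt, and it was higher in each longer class. The gradient arm carried most of this at the short end, with a median log2 of 0.63 in the pooled fractions and 0.17 in the IP for the shortest class. In that class 4.89% of genes were higher and 16.4% lower, and in the longest 14.7% and 10.3%. Across genes, which are not independent replicates, the rank correlation of the difference with coding length was 0.239, with -0.00612 for the IP arm and -0.273 for the gradient arm. Computed from the libraries that share a replicate number, it was 0.0161, 0.0849 and 0.401, and so weak in the libraries numbered 1 and 2. The quartiles within each class spanned more than the medians moved between classes.

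**Figure D5:**
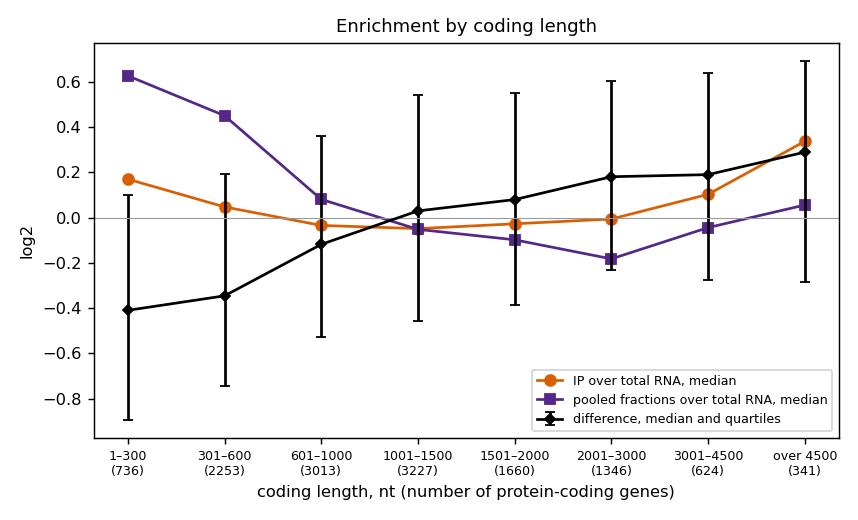
Median log2 enrichment by coding length class for IP (orange circles), pooled fractions (purple squares) and their difference (black diamonds, bars from the lower to the upper quartile of genes); the number of protein-coding genes stands in brackets. The median difference runs from -0.41 in the shortest class to 0.29 in the longest.

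Chromosomes differed little from each other apart from the mitochondrial genome. Median differences lay between -0.08 on chromosome IV and 0.02 on chromosome I, and between 10.4 and 12.6% of the genes of a nuclear chromosome were higher.

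The same IP libraries were also set against polysomes of the same strain, from another gradient experiment with its own total RNA. That comparison shares all 6 IP-experiment libraries with the present one, so the values are given side by side only. The median log2 of the mitochondrially encoded mRNAs was -2.55 in polysomes over total RNA, beside -1.01 in the pooled fractions. It was 1.23 in polysomes and 0.50 in the pooled fractions for cytosolic ribosomal protein genes, -1.50 and -0.72 for germline and oocyte genes, -1.65 and -0.53 for pseudogenes, and -0.42 and -0.26 for nuclear hormone receptor genes.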

How the data were processed

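Samples were grouped by the submitters' labels into the ribosome IP and its total RNA, and the pooled 60S, 80S and polysome fractions and their total RNA, with 3 libraries each. In the IP experiment, deviations from the group means of IP and total RNA libraries with the same replicate number correlated at 0.238, 0.271 and 0.179. Each IP library thus correlated best with its own number, but 3 libraries are limited ground for a pairing, which the labels do not state. The fits were designed without a block, and the fit with one was an alternative. Values are the authors' deposited normalized counts per gene, a signal on a linear scale that was scaled separately in each table. The submitters' processing notes name kallisto 0.46.1, DESeq2 1.30.1, R 4.0.4 and ce11, with no role or order. The IP washing and library steps are not given in the sources used here. The authors' deposited log2 fold changes and their standard errors served only as an alternative, and the authors' deposited p-values, their -log10 values and the authors' test statistic, a score, were not used in any result. Whole reads could not be recovered, since 11.4 to 42.8% of low values were within 1% of a whole multiple of the smallest step; estimated depth was 20100000 to 60300000 reads per library, and intervals from depth were not used.

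Values were log2(normalized count + 1). Genes with a mean of at least 10 in both tables were kept, 13685 of 16676 in both. limma 3.58.1 (R 4.3.3, trend) tested IP over total RNA, pooled fractions over total RNA and their difference (interaction), with Benjamini-Hochberg adjustment over all genes tested and a threshold of 0.05. The test was run on simulated counts with one spread setting for all genes. It recovered 13 and 16 of 50 genes changed by log2 1 and -1, and 49 and 39 of 50 changed by log2 2 and -2. Of 13485 unchanged genes, 6 passed. In that setting most 2-fold changes did not pass, so a gene not called may still differ. Summaries and figures used Python 3.11.15, numpy 2.4.6, pandas 2.3.3, scipy 1.17.1 and matplotlib 3.10.9. Symbols, positions and biotypes came from the Ensembl release 115 annotation of WBcel235, and 13331 of 13685 genes tested had a symbol.

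Named genes were rpl-22, the 12 largest differences in each direction (adjusted p under 0.05, a standard symbol, a mean of at least 500, libraries separated in at least 1 experiment), and, per list, the 4 members with the highest counts and the 2 largest differences in each direction; only some of these are printed. The comparison and the lists were chosen with earlier results of these data known, and 8 lists were added after values were seen. Alternatives were the pseudocounts 0.5 and 5, no filter, a mean of at least 100, equal library sums, the authors' estimates, a replicate block, library weights and leaving out each library; a filter on total RNA alone was chosen after seeing the data.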

Additional observations from a re-analysis of the deposited data

Results flagged for a closer look

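Genes with effects in opposite directions were flagged because the interaction test separates the 2 experiments, each arm passes its own threshold, and the libraries do not overlap in either experiment. Of the 13685 genes tested, 198 were above total RNA in the IP and below it in the pooled fractions. They include 27 of 346 pseudogenes tested, 8 of 150 nuclear hormone receptor genes and 7 of 133 noncoding RNAs. The pseudogene and receptor lists were added after values were seen. The differences were 3.95 for rpa-4, 1.97 for cdk-8 and 1.99 for zip-4. Their mean counts in total RNA were 48.5, 214 and 392 in the IP experiment, against 1816, 2781 and 2894 in the gradient experiment. The part of this in the differences was not tested. In the reverse direction there were 160 of the 13685 genes, below total RNA in the IP and above it in the pooled fractions. They include 6 of the lectin, lysozyme and saposin-like list, 5 intestine genes, 4 small peptide genes, 3 oxidative phosphorylation genes, 3 mitochondrial ribosomal protein genes and 2 transthyretin-like genes. The differences were -1.63 for maoc-1, a dehydratase of peroxisomal fatty acid oxidation, -1.67 for lys-2 and -1.56 for inx-16, an innexin of the intestine. Here the mean counts in total RNA were higher in the IP experiment, 727, 2123 and 972, against 387, 1188 and 520 in the gradient experiment. The part of this in these negative differences was not tested either. maoc-1 had 357, 453 and 423 normalized counts in the IP, against 695, 733 and 753 in its total RNA, and 506, 726 and 827 in the pooled fractions, against 412, 374 and 374 in theirs.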

How the results depend on the processing

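Of 5680 values recomputed for 273 single genes, 5311 kept their side of the threshold, 301 lost a call, 68 gained one and 0 changed sign with a call. Of the summary counts, a mean of at least 100 in both tables gave 1064 genes higher in the difference, 1692 higher in the IP over total RNA, and 49 higher among list members in place of 88. Equal library sums gave 492 genes lower in the difference, 1494 lower in the IP over total RNA, 1917 lower in the pooled fractions over total RNA, and 153 lower list members in place of 312. Library weights gave 2489 genes lower in the difference. The causes were not tested, except that a higher minimum tests fewer genes. Leaving out each library gave 1069 to 1816 genes higher and 1136 to 1942 lower in the difference, 2248 to 3047 higher and 2542 to 3464 lower in the IP over total RNA, and 1787 to 3252 higher and 2052 to 3499 lower in the pooled fractions over total RNA. Over the same settings, list members numbered 55 to 95 higher and 211 to 439 lower.

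Each IP library correlated best with the total RNA library of its own number, which is limited ground for a pairing. In the gradient experiment, deviations of same-numbered fraction and total RNA libraries correlated at -0.389, 0.144 and -0.00941, and not every library correlated best with its own number. The block could therefore be read as a pairing only in the IP arm. With the replicate block, 1779 genes were higher and 1701 lower in the difference. The block gave 2955 higher and 3191 lower in the IP over total RNA, 2732 and 3024 in the pooled fractions over total RNA, and 101 and 322 among list members. Among the 273 single genes it removed 6 calls and added 3. Beside the lists and genes for which the blocked value is given, it moved no list count of more than 2 by over 1.5 times.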
